A study of Homo sapiens with 6 samples.

Results

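Genes of folate uptake, mitochondrial and cytosolic one-carbon metabolism and purine ring synthesis were examined in HCT116 cells with and without PLEK2 knockdown. The 9 genes, taken by symbol from the 17047 genes of the deposited table, were SLC19A1, FPGS, GGH, SHMT2, MTHFD2, MTHFD1L, MTHFD1, GART and ATIC. They were chosen by symbol, although earlier results of these data were known at the choice. All 9 had enough counts to be tested among 12959 genes. HCT116 is a cell line from a human colorectal carcinoma. The control cells carried shNC, a non-targeting shRNA, and the others carried a PLEK2 shRNA, both delivered by viral transduction. The study's materials list 1 PLEK2 shRNA, so the comparison rests on 1 hairpin in 1 cell line. Polyadenylated RNA from 3 libraries per group was read as single-end 50-base reads. Nothing says that the libraries came from separate cultures, so p-values measure the spread between libraries, which may be technical. The study asked what the loss of PLEK2 does to expression in these cells, and it followed TYMS, the thymidylate synthase, which draws on the same folate pool.

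Folates carry one-carbon units between their donors, chiefly serine, and the reactions that build thymidylate, purines and methionine. Folate enters through the reduced folate carrier and is held in the cell by a chain of glutamates. Mitochondrial enzymes release the carbon of serine as formate, a cytosolic enzyme loads the formate back onto folate, and GART and ATIC use the product to close the purine ring. Proliferating tumor cells are known for high use of this route, and antifolate drugs such as methotrexate and pemetrexed, and the leucovorin given with 5-fluorouracil in colorectal cancer, use the same carrier and glutamate chain.

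The libraries held between 14377532 and 15602732 estimated counts. PLEK2 was at 73 to 86 CPM (each library's counts over its TMM-scaled total) with shNC and at 16 to 35 with PLEK2 shRNA, without overlap. Its log2 fold change was -1.54 (standard error 0.24, adjusted p 0.684, edgeR's quasi-likelihood test). With the replicate number as a block it was -1.57 (standard error 0.17, adjusted p 0.00106, edgeR). The replicate 1 libraries of both groups stood apart from the other 4. Deviations from the group mean correlated between -0.629 and -0.551 when 1 of the 2 libraries compared was a replicate 1 and the other was not, and at 0.736 between both replicate 1 libraries, over 10161 genes. Deviations within a group cancel out, so the negative values follow from the positive one and add no separate evidence. Because replicate 1 stood apart, changes within same-numbered pairs are given, and values without a replicate 1 library are given where they move a result. Of 8 colorectal epithelial markers, 6 exceeded 1 CPM in every library, and VIL1 and LGALS4 did not. Of the markers of other cells, none of the 3 leukocyte or 3 endothelial genes in the table exceeded 1 CPM in every library, and of 3 fibroblast genes COL1A1 did. The summed epithelial markers ranged from 7684 to 8813 CPM with shNC and from 6158 to 8045 CPM with PLEK2 shRNA, and their part in the results was not tested.

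To show annotated promoters of the 9 genes, the letters from 250 bases before to 50 bases after annotated start sites were read from RefSeq on GRCh38.p14. Which start sites HCT116 cells use was not tested. Such windows were held for 7 of the 9 genes, 17 windows in all. SHMT2 and GGH had no entry. The sequence CACGTG, the E-box to which MYC and related factors bind, was present for 5 of these 7 genes, namely SLC19A1, FPGS, MTHFD1L, MTHFD1 and ATIC. It was present in 12.6% of the 10493 tested genes with a window. By window, 7 of 17 held it, against 7.3% of all 35116 windows, which include those of untested genes. Some of the 7 were overlapping MTHFD1L windows that held the same site, so they do not count as separate sites. Genes with several start sites have more chances to hold a motif, and the windows of these genes were also richer in G and C (median 70.7%) than those of all tested genes (65.0%). SLC19A1 had 4 windows and FPGS had 3, and the start site given for each is that of the window that held the E-box. The sites are shown with 12 bases on each side on the strand of the gene, 5′ to 3′, with the E-box in capitals.
SLC19A1, chr21:45541797-45541826, minus strand, starting 33 bases after the start site: ttcgcgcccaggCACGTGttgcttcgggac
FPGS, chr9:127803093-127803122, plus strand, starting 76 bases before it: tgggcgcgacgaCACGTGggcctgcgctga
MTHFD1L, chr6:150866320-150866349, plus strand, starting 154, 115 and 1 bases before 3 annotated start sites: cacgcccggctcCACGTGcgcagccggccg
MTHFD1, chr14:64388326-64388355, plus strand, starting 15 bases before it: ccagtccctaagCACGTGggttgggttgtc
ATIC, chr2:215312001-215312030, plus strand, starting 46 bases before it: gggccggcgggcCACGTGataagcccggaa
ATIC, chr2:215312076-215312105, plus strand, starting 30 bases after it: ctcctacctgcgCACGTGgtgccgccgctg
ATIC thus held a pair of E-boxes, one on each side of its start site. The 6 letters read the same on both strands. Of the other 7 motifs searched on both strands, CCAAT was present for 5 of the 7 genes (43.1% of tested genes) and GGGCGG for 5 (77.8%). TGATGNAA, the form read by ATF4 and CEBP factors, was present for MTHFD1L alone (2.7%). CCGGAAG was present for GART (22.2%), as was TTTGGCGC (1.4%). TTTCGCGC was present for none (1.2%), and the palindrome read by NRF1 for MTHFD1 (2.6%). MTHFD2 and GART held no E-box in these windows. A match gives letters only and does not show that a factor binds there in HCT116 cells.

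All 9 genes were well expressed. Levels between genes were compared as FPKM, which scales counts to transcript length and library total. MTHFD2, the mitochondrial dehydrogenase that oxidizes the one-carbon unit, was the highest of the 9, at 119 FPKM on average over the 6 libraries (107 to 136). SHMT2, which takes the carbon from serine in mitochondria, followed at 92.7 to 106 FPKM. MTHFD2 was above SHMT2 in 6 of 6 libraries and their ranges did not overlap. The purine enzymes came next, ATIC at 82.7 FPKM (78.1 to 88.5) and GART at 75.6 FPKM (68.6 to 82.9). ATIC exceeded GART in each library, although the ranges of these neighbours overlapped.

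MTHFD1, at 61.1 FPKM (57.8 to 66.8), and MTHFD1L, at 53.6 FPKM (52.9 to 54.7), had separate ranges, both below those of the purine enzymes. The genes of folate entry and retention were the lowest of the 9. SLC19A1 was at 33.7 FPKM (27.02 to 40.53), FPGS at 30.1 FPKM (27.7 to 33.1) and GGH at 24.9 FPKM (21.9 to 28.8). The order of these 3 was not fixed. SLC19A1 exceeded FPGS in 4 of 6 libraries and FPGS exceeded GGH in 5 of 6, so these neighbours did not differ beyond their spread. Among all tested genes the 9 lay between percentile 73.3 (GGH) and percentile 95.2 (MTHFD2).

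SHMT2 and MTHFD2 were far above the relatives set beside them, while mitochondrial MTHFD1L lay below cytosolic MTHFD1 in 6 of 6 libraries. SHMT2 had 4.44 to 5.29 times the FPKM of SHMT1, the cytosolic form, and MTHFD2 had 27.9 to 36.8 times that of MTHFD2L, a mitochondrial relative. The lowest of these ratios was in PLEK2 shRNA replicate 1 in both cases, and the highest in shNC replicate 3. The ranges of the 2 groups overlapped for both ratios.

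**Figure D1:**
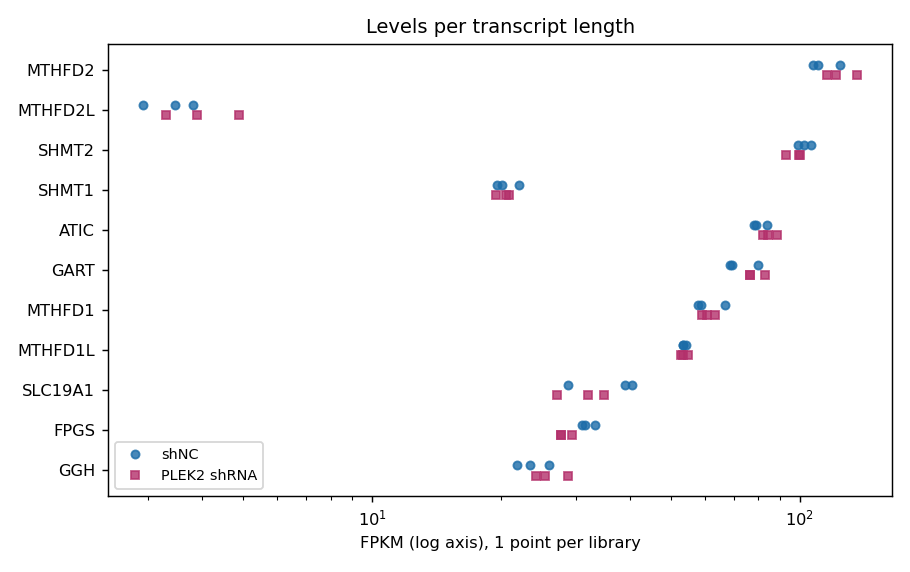
FPKM on a log axis for the 9 genes and for SHMT1 and MTHFD2L, 1 point per library, with shNC as circles and PLEK2 shRNA as squares. The order runs from MTHFD2 near 119 FPKM to GGH near 24.9 FPKM, and MTHFD2L lies far to the left at 2.92 to 4.88 FPKM.

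After PLEK2 knockdown, edgeR's quasi-likelihood test called 0 of the 9 genes at an adjusted p of 0.05, and 0.0% of all genes tested. At an unadjusted p under 0.05 that test marked 1 of the 9, FPGS, against 3.09% of all genes. DESeq2's Wald test and limma-trend also called 0 of the 9. With the replicate block, edgeR called 0 of the 9 and 0.849% of all genes, while an unadjusted p under 0.05 was given to FPGS and SLC19A1, 2 of 9, against 18.3% of all genes. Both were lower with PLEK2 shRNA. In bulk RNA, fewer cells that express a gene and less of its RNA per cell cannot be told apart. A count of 2 among 9 is close to that background. The median log2 fold change of the 9 genes was -0.02, and that of all tested genes was near 0 (-0.00206).

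Within same-numbered pairs, SLC19A1, FPGS and SHMT2 were lower with PLEK2 shRNA in 3 of 3 pairs, as were 21.1% of all tested genes. GGH and MTHFD2 were higher in 3 of 3 pairs, as were 19.9% of all tested genes. MTHFD1, MTHFD1L, GART and ATIC changed sign between pairs. The groups parted completely for FPGS and SHMT2, both lower, against 5.11% of all genes that were lower without overlap. None of the 9 was higher without overlap, against 4.08% of all genes. The median of the 9 was -0.13 in pair 1, 0.03 in pair 2 and 0.09 in pair 3 on the log2 scale, so its sign was not shared between pairs.

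**Figure D2:**
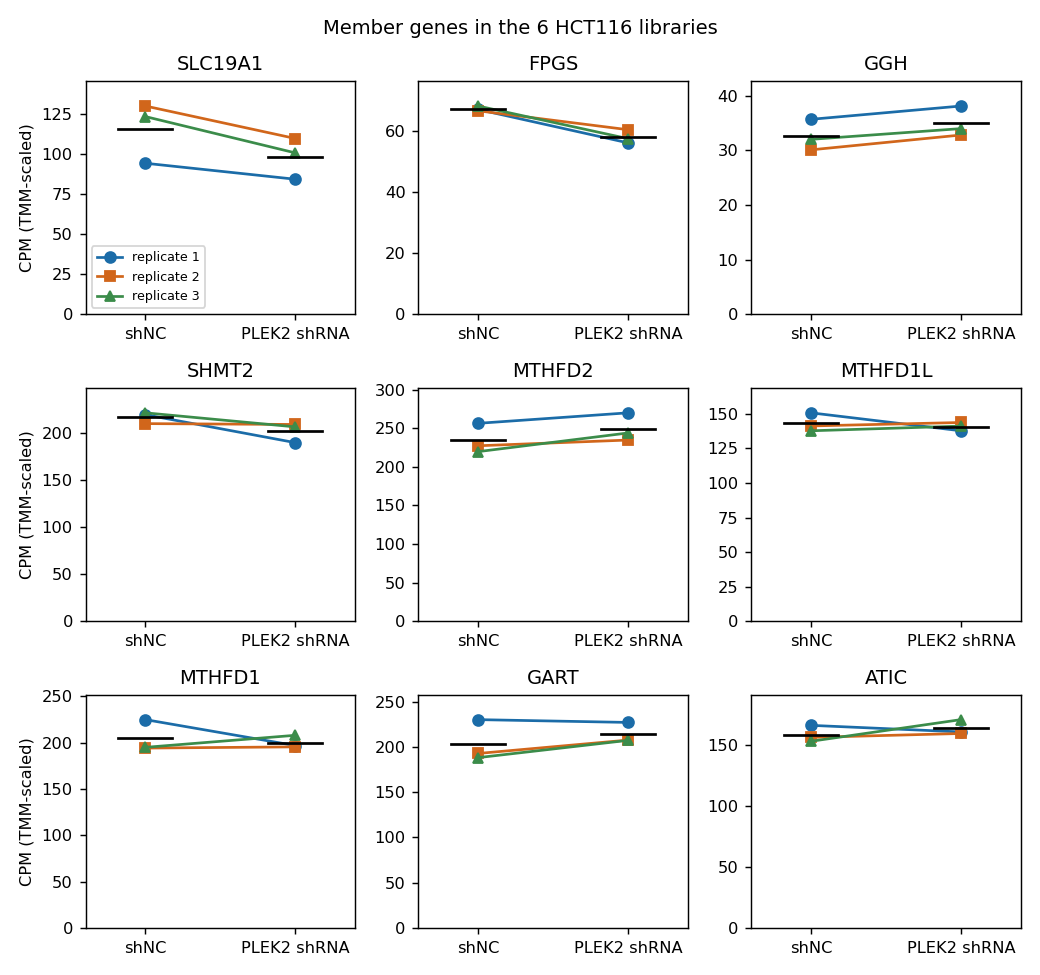
CPM of the 9 genes in each library (TMM-scaled, axes from 0), with lines that join libraries of the same replicate number and black bars at the group means. The lines of SLC19A1 and FPGS all run down and those of GGH and MTHFD2 all run up, while replicate 1 of SLC19A1 lies below the other replicates in both groups.

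SLC19A1 (NCBI Gene 6573, chromosome 21) encodes the reduced folate carrier, which brings folates and antifolates across the plasma membrane. It had 94.4, 130.2 and 123.6 CPM in shNC replicates 1, 2 and 3, and 84.4, 109.9 and 100.9 CPM in PLEK2 shRNA replicates 1, 2 and 3. Replicate 1 was the lowest library of both groups, and the groups overlapped. The means were 116 ± 19.1 CPM with shNC and 98.4 ± 12.9 CPM with PLEK2 shRNA (SD, n = 3). The gap between replicate 1 and the mean of replicates 2 and 3 was -0.43 with shNC and -0.32 with PLEK2 shRNA on the log2 scale. These gaps were wider than the change within any pair, which was -0.16, -0.25 and -0.29 in pairs 1, 2 and 3.

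The log2 fold change of SLC19A1 was -0.24 (standard error 0.14, adjusted p 0.968, edgeR). It was -0.23 with the replicate block (standard error 0.06, 95% interval -0.35 to -0.11), with an unadjusted p of 0.00102 and an adjusted p of 0.0695 from edgeR. SLC19A1 was thus not called with all libraries. With replicate 1 left out of both groups, the fit with the block gave -0.26 and an adjusted p of 0.00596 (edgeR), and it called 4.06% of all genes. Without replicate 2 it gave -0.22 (adjusted p 0.360, edgeR) and without replicate 3 it gave -0.19 (adjusted p 0.192, edgeR), so the call was present in 1 of these 3 fits. With no block, leaving out 1 library moved it from -0.36 (without shNC replicate 1) to -0.14 (without PLEK2 shRNA replicate 1 or shNC replicate 2).

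Reads of SLC19A1 are not its own alone. Its exons overlap those of COL18A1, a collagen gene on the opposite strand, over 1563 bases in GENCODE 44. The count of SLC19A1 carried decimals in all 6 libraries. Its sum with the count of COL18A1 was whole in all 6 libraries (within 0.011), and no other gene among 3596 with decimals gave such sums. In shNC replicate 1, for example, 1448.74 and 1191.26 counts summed to 2640. Reads that fell on both genes had therefore been divided between them. COL18A1 was also lower in each pair, by a log2 ratio of -0.22, -0.09 and -0.25 (log2 fold change -0.19 with the block, adjusted p 0.125, edgeR). The summed CPM of both genes was 172, 243 and 250.01 with shNC and 151, 216 and 207 with PLEK2 shRNA. That sum was lower in each pair too, by a log2 ratio of -0.19, -0.17 and -0.27. How much of the difference belongs to each gene cannot be told apart where reads are shared.

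FPGS (NCBI Gene 2356, chromosome 9) encodes folylpolyglutamate synthase, which adds the glutamates that keep folates in the cell. It had 67.0, 66.6 and 68.1 CPM with shNC and 56.1, 60.4 and 57.5 CPM with PLEK2 shRNA. Every PLEK2 shRNA library was below every shNC library. The means were 67.2 ± 0.809 and 58.0 ± 2.198 CPM (SD, n = 3), and the spread within each group was small beside the difference between them. The log2 ratio was -0.26, -0.14 and -0.25 in pairs 1, 2 and 3.

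The log2 fold change of FPGS was -0.21 (standard error 0.08, 95% interval -0.39 to -0.04, adjusted p 0.968, edgeR). With the block it was -0.21 again (standard error 0.06, unadjusted p 0.00314, adjusted p 0.0982, edgeR), which missed the threshold. An exact permutation test of 3 libraries against 3 could not go below a two-sided p of 0.1. Unlike SLC19A1, FPGS did not set replicate 1 apart, since the gap of replicate 1 was -0.01 with shNC and -0.07 with PLEK2 shRNA. Without replicate 1 in both groups the fit with the block gave -0.19 (adjusted p 0.0989, edgeR). FPGS was also lower without overlap on the FPKM scale, with 31.0 to 33.1 FPKM in shNC and 27.7 to 29.4 FPKM in PLEK2 shRNA. Its counts were whole in all 6 libraries and ranged from 868 to 1028.

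GGH (NCBI Gene 8836, chromosome 8) encodes gamma-glutamyl hydrolase, which trims the glutamate chain that FPGS builds. It had 35.7, 30.1 and 32.0 CPM with shNC and 38.1, 32.8 and 34.0 CPM with PLEK2 shRNA. Each PLEK2 shRNA library was above the shNC library of the same number, but the groups overlapped. The log2 ratio was even across pairs, at 0.10, 0.12 and 0.09. For GGH the log2 fold change was 0.10 (standard error 0.11, adjusted p 0.968, edgeR), and 0.10 with the block (standard error 0.07, adjusted p 0.451, edgeR). Leaving out 1 library with no block moved it from 0.03 (without PLEK2 shRNA replicate 1) to 0.18 (without shNC replicate 1). With 426 to 599 counts per library GGH was the least deeply counted of the 9 genes, and its 95% interval with the block ran from -0.05 to 0.25.

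FPGS and GGH act in opposite directions on the same chain, so their levels were also set against each other. The FPKM of FPGS divided by that of GGH was 1.215, 1.419 and 1.414 with shNC, and 0.9604, 1.217 and 1.091 with PLEK2 shRNA. The ratio was lower in each pair, which follows from FPGS being lower and GGH higher in each pair and adds no separate evidence. The highest PLEK2 shRNA value, in replicate 2, was just above the lowest shNC value, in replicate 1, so the groups overlapped narrowly.

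SHMT2 (NCBI Gene 6472, chromosome 12) had 220.0, 210.5 and 222 CPM with shNC and 190.2, 209.6 and 207 CPM with PLEK2 shRNA. Here the groups parted by the smallest of margins, since the lowest shNC library had 210.5 CPM and the highest PLEK2 shRNA library 209.6 CPM, both of replicate 2. On the FPKM scale they overlapped, since PLEK2 shRNA replicate 2, at 100.3 FPKM, exceeded shNC replicate 2. Pair 1 had a log2 ratio of -0.21, pair 2 of -0.01 and pair 3 of -0.10. Over all libraries the log2 fold change was -0.10 (standard error 0.08, adjusted p 0.968, edgeR), and -0.11 with the block (standard error 0.06, adjusted p 0.333, edgeR). The block gave -0.05 when both replicate 1 libraries were dropped (adjusted p 0.654, edgeR).

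MTHFD2 (NCBI Gene 10797, chromosome 2) had 256.5, 227 and 219.8 CPM with shNC and 270.1, 235 and 244 CPM with PLEK2 shRNA. Replicate 1 was the highest library in both groups, and the groups overlapped. Within pairs 1, 2 and 3 the log2 ratio was 0.07, 0.05 and 0.15. Its log2 fold change was 0.09 (standard error 0.09, adjusted p 0.968, edgeR), and 0.09 with the block (standard error 0.05, adjusted p 0.374, edgeR). Leaving out 1 library with no block moved it from 0.03 (without PLEK2 shRNA replicate 1) to 0.17 (without shNC replicate 1). On the CPM scale, the mitochondrial SHMT2 and MTHFD2 thus lay on opposite sides of 0 in each of the 3 pairs, neither past the threshold. In pair 2, however, SHMT2 was close to 0 (-0.00614), and on the FPKM scale both genes were higher with PLEK2 shRNA in that pair. The exons of MTHFD2 overlap those of SLC4A5 on the opposite strand over 1324 bases, but its counts were whole in all 6 libraries.

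MTHFD1L (NCBI Gene 25902, chromosome 6) encodes the mitochondrial ligase that releases formate. It had 151, 141 and 138 CPM with shNC and 138, 144 and 141 CPM with PLEK2 shRNA, the narrowest spread of the 3 mitochondrial genes. The groups overlapped, and the sign differed between pairs, with log2 ratios of -0.13, 0.03 and 0.04. The log2 fold change was -0.02 (standard error 0.08, 95% interval -0.19 to 0.15, adjusted p 0.983, edgeR). Without replicate 1 in both groups it was 0.04 (adjusted p 0.770, edgeR with the block).

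MTHFD1 (NCBI Gene 4522, chromosome 14) encodes the cytosolic enzyme that loads formate onto folate and interconverts the loaded forms. It had 225, 194 and 195 CPM with shNC and 197, 195 and 208 CPM with PLEK2 shRNA. The highest of these was shNC replicate 1, and the other 5 libraries lay between 194 and 208 CPM. Its log2 ratio was -0.19 in pair 1, 0.01 in pair 2 and 0.09 in pair 3. Its log2 fold change was -0.03 (standard error 0.08, 95% interval -0.22 to 0.16, adjusted p 0.979, edgeR), and the sign turned without shNC replicate 1 (0.05, adjusted p 0.746, edgeR). Counts of MTHFD1 and of MTHFD1L carried decimals in all 6 libraries, and no single other gene made either of them whole in every library.

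GART (NCBI Gene 2618, chromosome 21) encodes a trifunctional enzyme of the early purine pathway, one step of which adds a formyl group from folate. It had 230.3, 193 and 188 CPM with shNC and 227, 208 and 207 CPM with PLEK2 shRNA. Replicate 1 was the highest library of both groups, and the groups overlapped. The log2 ratio was -0.02, 0.11 and 0.14 in pairs 1, 2 and 3. For GART the log2 fold change was 0.07 (standard error 0.10, adjusted p 0.968, edgeR), and 0.07 with the block (standard error 0.05, adjusted p 0.488, edgeR). Dropping both replicate 1 libraries gave 0.13 with the block (adjusted p 0.161, edgeR). With no block, GART ranged from 0.03, without shNC replicate 3 or without PLEK2 shRNA replicate 1, to 0.18 without shNC replicate 1.

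ATIC (NCBI Gene 471, chromosome 2) encodes the enzyme of the last purine ring steps, where a further formyl group is added and the ring is closed to inosine monophosphate. It had 166.5, 157 and 153 CPM with shNC and 161, 159.8 and 171 CPM with PLEK2 shRNA, and the groups overlapped. The log2 ratio was -0.05, 0.03 and 0.16 in pairs 1, 2 and 3. The log2 fold change was 0.05 (standard error 0.08, adjusted p 0.968, edgeR). Without replicate 1 in both groups it was 0.10 (adjusted p 0.322, edgeR with the block), and without replicate 3 it was 0.000928 (adjusted p 0.998, edgeR with the block). For GART and ATIC, pair 1 was the one below 0 and pair 3 the highest.

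**Figure D3:**
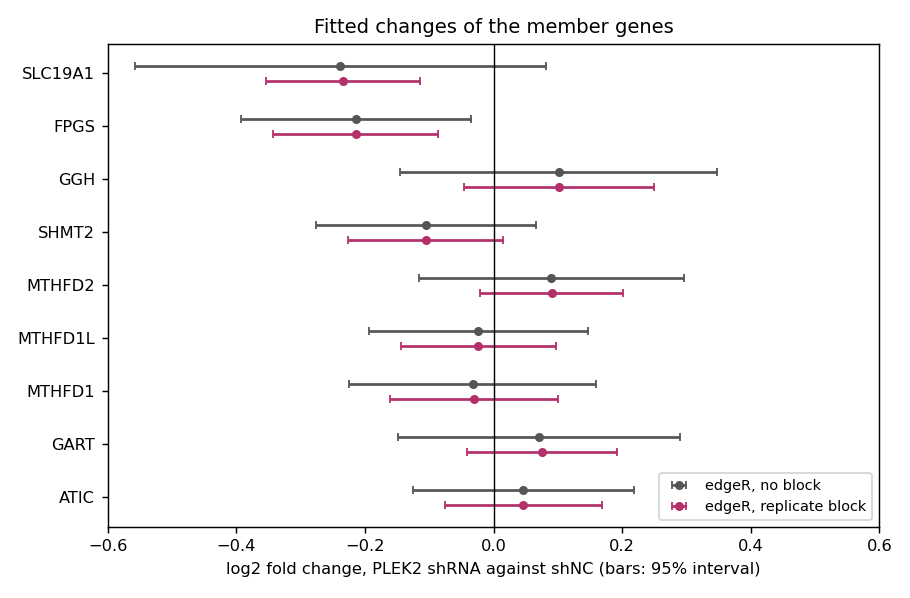
Log2 fold change of the 9 genes, PLEK2 shRNA against shNC, with 95% intervals from edgeR without (grey) and with (purple) the replicate block. The intervals of FPGS exclude 0 in both fits and that of SLC19A1 with the block alone, yet none of the 9 passed an adjusted p of 0.05 over all genes.

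The intervals measure the spread between these libraries, which may be technical, and do not bound a missed difference between separate cultures. Each holds for its gene alone and was not adjusted over the 9 genes. That of SLC19A1 is for a count whose reads were partly shared with COL18A1. With the block, the widest limits of the 9 were -0.35 (SLC19A1) and 0.25 (GGH) on the log2 scale. Without the block they were wider, at -0.56 (SLC19A1) and 0.35 (GGH). By contrast, TYMS was at 145 to 199 CPM with shNC and at 45.7 to 77.4 CPM with PLEK2 shRNA. Its log2 fold change was -1.30 (standard error 0.21, adjusted p 0.684, edgeR), and -1.31 with the block (adjusted p 0.00333, edgeR). The counts of TYMS carried decimals in all 6 libraries, and a sharing of its reads with other genes was not examined. With DESeq2 and the block TYMS missed the threshold (adjusted p 0.102), while DESeq2 without the block called it. In edgeR's test of all 6 libraries neither TYMS nor PLEK2 was called without the block, while PLEK2 was called without its lowest library, PLEK2 shRNA replicate 1 (-1.26, adjusted p 0.0106, edgeR).

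The 9 genes also differed between replicates. In both groups, MTHFD2, GGH and GART were higher in replicate 1 than in the mean of replicates 2 and 3, by 0.13 to 0.27 on the log2 scale, and SLC19A1 was lower. MTHFD1, MTHFD1L, ATIC and SHMT2 were higher in replicate 1 with shNC (0.02 to 0.21) and lower with PLEK2 shRNA (-0.13 to -0.03). FPGS was slightly lower in replicate 1 of both groups. For MTHFD2, GGH, GART and SLC19A1 the gap of replicate 1 was larger in size, in both groups, than the fitted difference between the groups. That also held for MTHFD1 and MTHFD1L, whose gaps differed in sign between the groups, for MTHFD1 with PLEK2 shRNA by a small margin.

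Likeness of pattern over the 6 libraries was described by Pearson's r of log2 CPM over 10231 genes, where the points share libraries and replicate 1 carries much of the spread. Among the 9, MTHFD2 and GART were most alike (r = 0.948). The member closest to GGH was MTHFD2 (0.928), and SHMT2 and FPGS were each other's closest member (0.858). MTHFD1 and MTHFD1L had r = 0.809. SLC19A1 ran opposite to GGH (-0.983), MTHFD2 (-0.963) and GART (-0.927). The tested gene most like each was MAP6D1 for SLC19A1 (0.999), HSD17B12 for MTHFD2 (0.998), UGDH for GART (0.998), HECTD3 for FPGS (0.996), DDX1 for GGH (0.996), STK11IP for SHMT2 (0.995), CDK5RAP1 for MTHFD1L (0.994), IFT22 for MTHFD1 (0.982) and C1QBP for ATIC (0.982). Each of these is the largest r found in a search of 10231 genes over 6 libraries, so values this high say little on their own.

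The rest of the pathway was read from lists of genes that are not among the 9. Of 24 further folate and one-carbon genes, 20 were tested, and 1, TYMS, was called with the block, as a fall. Without the block edgeR called 0, with 1 at an unadjusted p under 0.05, and DESeq2's Wald test called TYMS (adjusted p 7.04e-07). Of the 20, 1 was higher and 4 were lower in 3 of 3 pairs, and the median log2 fold change was 0.01. Over all tested genes, 19.9% were higher and 21.1% lower in 3 of 3 pairs, and 0.849% were called with the block.

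Among 11 tested purine synthesis genes besides GART and ATIC, 0 were called with or without the block, and 6 were higher and 2 lower in 3 of 3 pairs. Over all tested genes those shares were 19.9% and 21.1%. Their median log2 fold change was 0.08, against -0.00206 for all genes, and 4 had an unadjusted p under 0.05 with the block, as did 18.3% of all genes. ADSS, an adenylosuccinate synthase, was at 42.5 to 66.6 CPM with shNC and at 52.6 to 73.6 CPM with PLEK2 shRNA (log2 fold change 0.18, adjusted p 0.156, edgeR with the block). Without PLEK2 shRNA replicate 1, and without the block, its difference was near 0 (-0.00162). ADSSL1, its muscle-type relative, was the largest decrease in the list (-0.40, adjusted p 0.169, edgeR with the block), at 5.08 to 9.56 CPM with shNC and 4.64 to 6.96 CPM with PLEK2 shRNA. It ranged from -0.64 without shNC replicate 1 to -0.24 without shNC replicate 3. The other 2, chosen after their values were seen, were PPAT and ADSL. PPAT, which catalyses the committed first step of the pathway, was at 104 to 129.6 CPM with shNC and at 118 to 151 CPM with PLEK2 shRNA (0.17, adjusted p 0.134, edgeR with the block). Leaving out PLEK2 shRNA replicate 1 alone took it to 0.05 without the block, while leaving replicate 1 out of both groups gave 0.15 with the block. ADSL, the adenylosuccinate lyase, had a log2 fold change of 0.12 (adjusted p 0.259, edgeR with the block), and of 0.05 without shNC replicate 2 when no block was used.

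Of 9 tested purine salvage genes, 0 were called, against 0.849% of all genes with the block, and the median log2 fold change was 0.03. NT5C2, a cytosolic nucleotidase, had the largest increase (0.06, adjusted p 0.563, edgeR with the block), and NT5E, the surface nucleotidase CD73, the largest decrease (-0.18, adjusted p 0.209, edgeR with the block). In pair 1 NT5E was at -0.42, and it was at -0.08 and -0.04 in the other pairs. Without replicate 1 in both groups it was -0.06 with the block, and without shNC replicate 1 alone it was -0.05 with no block. NT5C2 was at 0.01 without PLEK2 shRNA replicate 1.

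Of 5 tested genes of serine synthesis and uptake, which supply the carbon that SHMT2 takes, 0 were called and 2 had an unadjusted p under 0.05 with the block, both lower, against 18.3% of all genes. PHGDH, the first enzyme of serine synthesis, was at 77.2, 86.8 and 79.5 CPM with shNC and at 55.7, 73.8 and 71.0 CPM with PLEK2 shRNA. Every PLEK2 shRNA library was below every shNC library, as for 5.11% of all tested genes. Its log2 fold change was -0.28 (adjusted p 0.968, edgeR), and -0.29 with the block (standard error 0.07, adjusted p 0.0666, edgeR). Of the 3 fits with the block that leave 1 replicate out of both groups, it passed without replicate 3 (-0.34, adjusted p 0.00814, edgeR). It did not pass without replicate 1 (-0.19, adjusted p 0.0688, edgeR) or without replicate 2 (-0.30, adjusted p 0.302, edgeR). With no block, leaving out PLEK2 shRNA replicate 1 alone gave -0.16. The other was SLC1A5, a transporter of neutral amino acids chosen after its values were seen (-0.18, adjusted p 0.113, edgeR with the block), and it was -0.05 without PLEK2 shRNA replicate 1 and with no block. PSAT1, the next enzyme of serine synthesis, was the largest increase of the list (0.07, adjusted p 0.511, edgeR with the block), at 0.02 without PLEK2 shRNA replicate 2 and with no block.

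Of 7 tested methionine cycle genes, 0 were called, 2 were higher and 3 lower in 3 of 3 pairs, and the median log2 fold change was 0.02. Among all tested genes 0.849% were called with the block, and 19.9% were higher and 21.1% lower in 3 of 3 pairs. MAT2B, a regulatory subunit of methionine adenosyltransferase, had the largest increase (0.20, adjusted p 0.160, edgeR with the block). Pair 1 was the highest for MAT2B, at 0.35, against 0.06 and 0.16. Without replicate 1 in both groups it was 0.12 with the block, and without PLEK2 shRNA replicate 1 alone it was 0.07 with no block. MTRR, the reductase that reactivates methionine synthase, was chosen after its values were seen (0.18, adjusted p 0.177, edgeR with the block). MAT1A, the liver form of the synthetase, had the largest decrease at under 2.01 CPM in every library (-0.37, adjusted p 0.470, edgeR with the block), and was at -0.13 without PLEK2 shRNA replicate 1 and with no block.

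**Figure D4:**
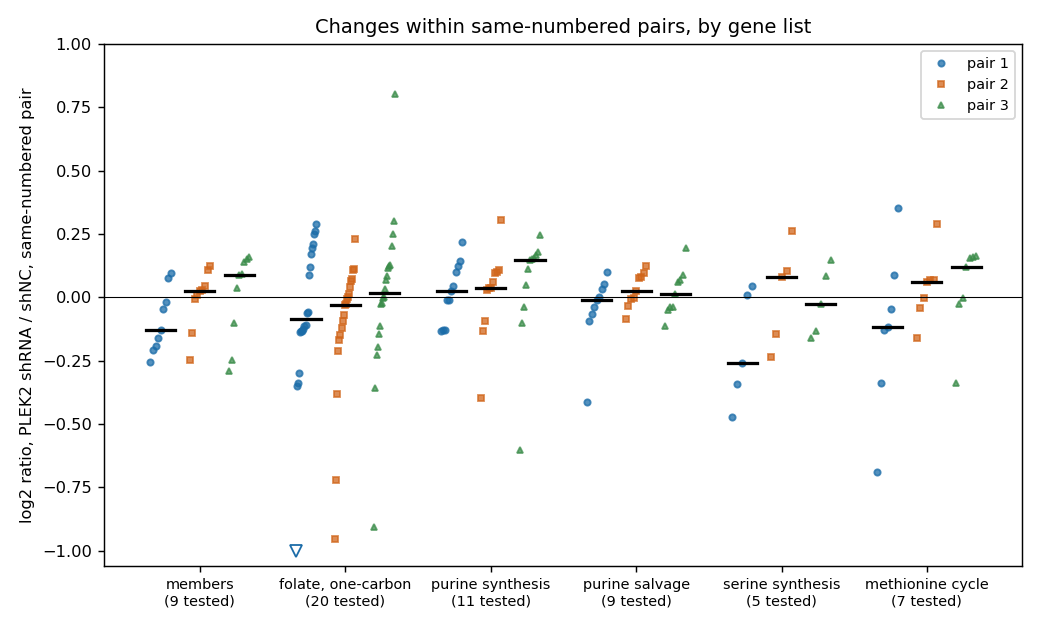
Log2 ratio of PLEK2 shRNA to shNC in each same-numbered pair for the tested genes of each list, 1 point per gene, with black bars at the list's median in that pair. The open triangle stands for TYMS in pair 1, at -2.12 and below the axis, and the purine synthesis medians are 0.03, 0.04 and 0.15 in pairs 1, 2 and 3.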

How the data were processed

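Polyadenylated RNA of HCT116 cells was sequenced in 6 libraries, assigned to 2 groups of 3 from the labels. The authors deposited estimated counts per gene, not normalized, of which 84.21 to 85.38% were whole in a library, and length-scaled values without a unit in the header, read here as FPKM. The submitters' processing notes name HISAT2 2.0.4, Bowtie2 2.2.5, RSEM 1.2.12 and DESeq2 1.4.5, with no role given. They name the mouse build GRCm38.p6, although the rows carry human symbols and NCBI Gene IDs, so the build behind the counts is uncertain and no gene coordinates from the counting are given. Group means deposited by the authors were not used.

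Counts were rounded and tested with edgeR 4.0.16 (filterByExpr defaults, TMM factors 0.9838 to 1.021, quasi-likelihood test, Benjamini-Hochberg adjustment over 12959 of 17047 genes). CPM are the unrounded counts over TMM-scaled library totals. A gene was called at an adjusted p under 0.05. DESeq2 1.42.0 and limma 3.58.1 on log2(FPKM + 1) or log2(FPKM + 0.1) were alternatives, in R 4.3.3. Tests were checked on simulated counts. The standard error is the fold change divided by the square root of F. Correlations between genes used log2(CPM + 0.5).

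Replicate numbers were taken to pair the libraries. Deviations from group means correlated at 0.736, 0.558 and 0.554 between libraries of the same number, over 10161 genes (mean log2 CPM above 3). The pair of shNC replicate 2 and PLEK2 shRNA replicate 3 gave 0.358, and that of shNC replicate 3 and PLEK2 shRNA replicate 2 gave 0.355. Beyond replicate 1, same-numbered libraries were thus only somewhat more alike than others. The pairing rests on these values and the shared numbers, since no shared day or batch is stated. The 9 genes had 426 to 4248 counts per library.

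The genes and the lists were chosen with earlier results of these data known, and the lists were written from general knowledge. Named besides the 9 were PLEK2, TYMS and, in each list, every gene called with or without the block, or otherwise its largest increase and decrease with the block, and for each of the 9 the gene of highest correlation. PPAT, ADSL, SLC1A5, MTRR and COL18A1 were chosen after their values were seen. Overlaps of exons come from GENCODE 44 on GRCh38. Promoters were matched by NCBI Gene ID.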

Additional observations from a re-analysis of the deposited data

How the results depend on the processing

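Across 20 alternatives per gene, 169 of 180 values of the 9 genes kept their direction and their side of the threshold, 10 turned in sign and 1 passed the threshold. FPGS stayed between -0.24 and -0.17, SHMT2 between -0.14 and -0.05, GGH between 0.03 and 0.18, MTHFD2 between 0.03 and 0.17, GART between 0.03 and 0.18, and ATIC between 0.000928 and 0.10 on the log2 scale. SLC19A1 stayed between -0.36 and -0.14 and passed with the replicate block without replicate 1 in both groups (-0.26), where the count of the 9 called was 1. The sign turned for MTHFD1 with the block and library totals (0.000977), limma-trend on log2(FPKM + 1) with and without the block (0.00262) and on log2(FPKM + 0.1) (0.0027) and with the block without replicate 1 in both groups (0.057), and leaving out 1 library gave -0.0609 to 0.053, above 0 without shNC replicate 1. It turned for MTHFD1L with library totals (0.00728), these with the block (0.00774) and the block without replicate 1 in both groups (0.0361), and leaving out 1 library gave -0.0422 to 0.0268, above 0 without shNC replicate 1. Leaving out 1 library gave -0.00162 to 0.399 for ADSS and -0.353 to 0.00864 for COL18A1, turned in both without PLEK2 shRNA replicate 1. For none of these was the cause tested.

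The count of all genes called was 0 with edgeR, 12 with DESeq2 (2 up, 10 down) and 110 with the replicate block (16 up, 94 down). With the block it was 192 with library totals (83 up, 109 down), 45 with DESeq2 and 20 with limma-trend, and 528, 18 and 297 without replicates 1, 2 and 3 in both groups. Leaving out 1 library gave 0 to 1. Other list genes called numbered 0 in the fit without the block, 1 with DESeq2, 1 with the block, with the block and library totals, with the block and limma-trend, and with the block without replicate 1 or 2, 2 without replicate 3, and 0 with the block and DESeq2. Beyond PLEK2 and TYMS the block over all 6 libraries changed no call among the genes named. Fewer than 10 counts limit genes of the lists near the filter, not the 9.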
